A study of Mus musculus with 8 samples.

Results

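The genes through which a cell receives and reads thyroid hormone were examined in immature oligodendrocytes (iOLs) induced in culture from Med23+/+ and Med23-/- precursors, Med23 being a subunit of the Mediator complex. The genes were taken by symbol and number 9 of the 24346 genes in the deposited table, all 9 being present: the thyroid hormone receptor genes Thra and Thrb, the retinoid X receptor genes Rxra, Rxrb and Rxrg, the target genes Klf9 and Hr, and the deiodinase genes Dio2 and Dio3. RNA was sequenced from 8 cultures, 4 labelled WT (Med23+/+) and 4 labelled MED23KO (Med23-/-). OPCs, the precursor cells of oligodendrocytes, were immunopanned with a CD140a antibody from brains of mice at P7, grown with the growth factors PDGF-AA (10 ng/mL) and NT-3 (1 ng/mL), and switched for 1 day to 15 nM T3 (triiodothyronine, the active thyroid hormone) with 10 ng/mL ciliary neurotrophic factor. All 8 cultures received T3, so the data hold no culture without hormone, and the response to T3 itself was not measured. The Med23-/- cells came from Med23 fl/fl;Olig1-cre mice, in which Cre expressed from Olig1 acts in the oligodendrocyte lineage. The authors give the control littermates as Med23 fl/fl, so the groups differ in the Cre allele as well as in Med23. The labels do not say whether the 4 cultures of a genotype came from separate animals, so the spread between them may be partly technical.

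T3 enters cells through transporters and binds nuclear receptors that sit on DNA mostly as pairs with a retinoid X receptor (RXR). Without hormone the pair holds corepressors and keeps target genes low, and with hormone it exchanges them for coactivators, among them the Mediator complex, which contacts the receptor mainly through its subunit Med1. In oligodendrocyte precursors T3 is known as a timer that ends division and starts differentiation. Dio2 makes T3 from its precursor thyroxine and is known in the brain mainly from astrocytes, while Dio3 inactivates T3.

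Med23 transcript was lower in every library labelled Med23-/-, 7.93 to 8.49 FPKM where Med23+/+ libraries held 12.2 to 12.7 FPKM (log2 difference -0.55, limma adjusted p = 0.000353), and thus still present. These values do not measure the protein, whose deletion the authors checked by western blot in lysates of primary OPCs. FPKM scales the fragments of a gene by its transcript length and by the mapped fragments of the library, so levels of different genes can be set side by side. The deposited table gives no read counts, the depth of the libraries is unknown, and between 15941 and 16469 genes were above 0 in a library. Genotypes were compared with limma on log2(FPKM + 1) over the 12328 genes that averaged 1 FPKM or more, and a gene was called with a Benjamini-Hochberg adjusted p under 0.05. On this scale a difference of weakly expressed genes is understated. All 7 markers of the oligodendrocyte lineage were expressed, with a summed level of 1698 to 2045 FPKM in Med23+/+ and 1555 to 2074 FPKM in Med23-/- libraries, but they did not move together. The precursor markers Pdgfra and Cspg4 were higher in Med23-/- iOLs (log2 difference 1.47 and 1.39), Sox10, Cnp and Mbp were lower (-0.49, -1.23 and -2.19), and Olig1 and Olig2 were not called. This difference in stage markers moved with those of Thra and Hr given next, and its part in them was not tested. All 8 microglia markers and all 5 endothelial markers were under 1 FPKM on average, and Trem2, a microglia marker, is listed at 0 in every Med23+/+ library.

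Among the 9 genes, Thra and Hr were lower in Med23-/- iOLs, Klf9, Thrb, Rxra and Rxrb did not pass the test, and Rxrg, Dio2 and Dio3 were too weakly expressed to be tested. Thra fell by 0.40 and Hr by 0.56 on the log2 scale, and neither reached a 2-fold change. Of the 6 genes tested, 2 were therefore called, both lower, while 30.0% of all genes tested were called, 14.1% lower and 15.9% higher. The 2 of 6 is near that background. A fold change above 2 with the same adjusted p was reached by none of the 6 and by 4.73% of all genes tested, 1.75% lower and 2.98% higher.

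**Figure D1:**
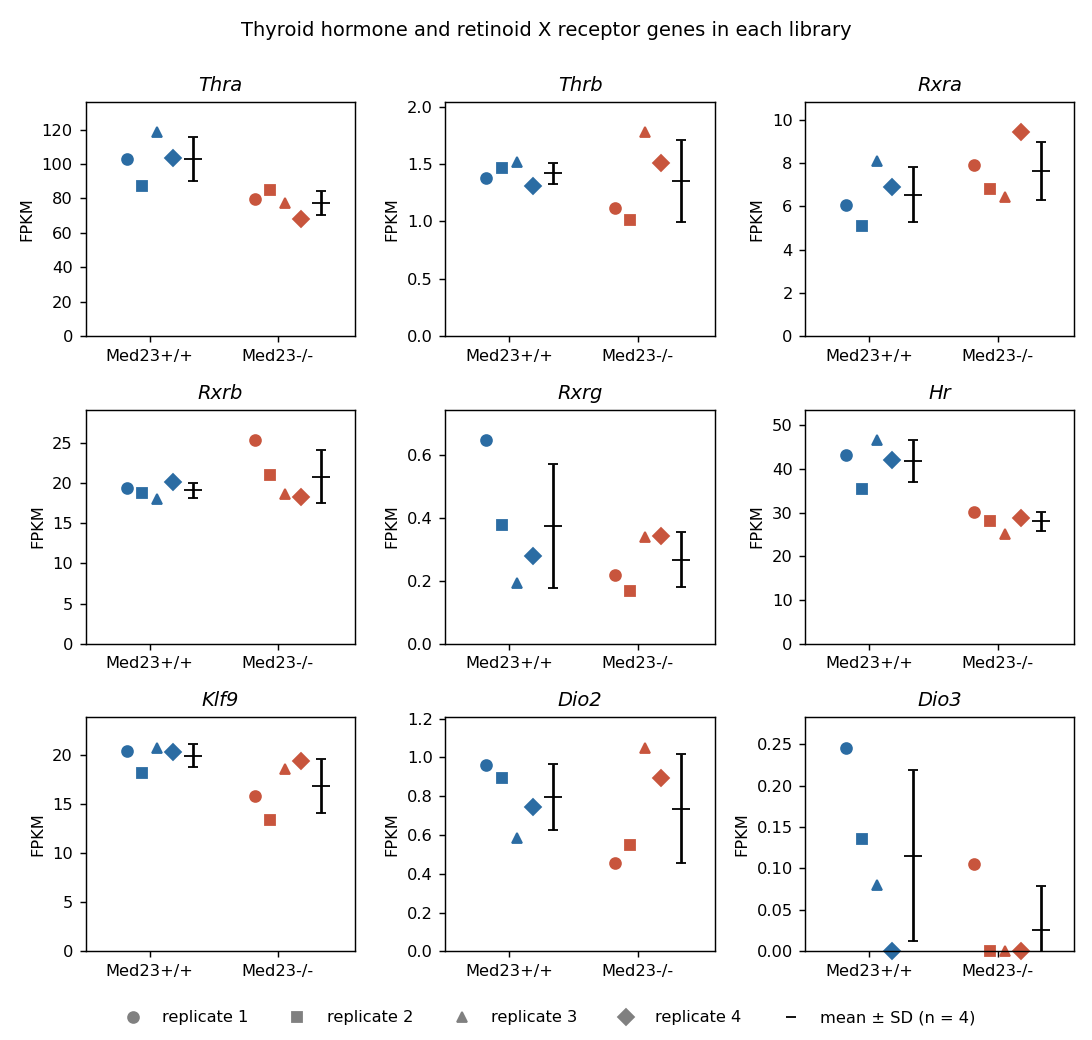
FPKM of the 9 genes in each library, with a panel for each gene, its own vertical axis from 0, blue symbols for Med23+/+ and red for Med23-/-, a symbol shape per replicate number, and the mean ± SD (n = 4) at the right of each group. The genotypes are apart for Thra and Hr and overlap for the other 7 genes, and the lower error bar of Dio3 in Med23-/- is hidden where it passes below 0.

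The order of levels was almost the same in all 8 libraries. Thra was highest, Hr came next, Klf9 and Rxrb followed, and then came Rxra, Thrb, Dio2, Rxrg and Dio3. Klf9 and Rxrb changed places between libraries, with Klf9 the higher in Med23+/+ replicates 1, 3 and 4 and in Med23-/- replicate 4, and their ranges overlapped in both genotypes. The ranges of Hr and Rxrb touched in Med23-/- iOLs, where the lowest Hr library (25.1 FPKM, replicate 3) was below the highest Rxrb library (25.4 FPKM, replicate 1). Among the weakly expressed neighbours, Thrb and Dio2 overlapped in Med23-/- but not in Med23+/+, and Dio2 overlapped with Rxrg, and Rxrg with Dio3, in Med23+/+ but not in Med23-/-. All other neighbours in this order lay apart in both genotypes.

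Thra (mm10 chromosome 11, 98740638 to 98769006, plus strand, 9 annotated transcripts) encodes thyroid hormone receptor alpha, the main T3 receptor of the brain. Replicates 1 to 4 of Med23+/+ held 102.9, 87.25, 118.4 and 103.6 FPKM, and those of Med23-/- held 79.8, 84.7, 77.4 and 68.1 FPKM. The lowest Med23+/+ library, replicate 2, lay only just above the highest Med23-/- library, also a replicate 2, and the groups did not overlap. No overlap was found for 31.6% of all genes tested. The mean was 103 ± 12.7 FPKM across Med23+/+ against 77.5 ± 6.94 FPKM across Med23-/- cultures (SD, n = 4 each), 0.752 times as much. The log2 difference was -0.40 (standard error 0.11, 95% interval -0.64 to -0.17, limma adjusted p = 0.0177), and the two-sided exact permutation test gave p = 0.0286, the smallest that 4 libraries against 4 allow. The call was lost under quantile normalization, where the difference was -0.27 (limma adjusted p = 0.0822), and it held with each library left out in turn (limma adjusted p from 0.00898 to 0.0479).

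Thra shares 263 of its exonic bases (5.70%) with Nr1d1, the clock repressor gene on the opposite strand, and the sources used here do not say whether strand was used in counting. Nr1d1 itself had 8.75 ± 0.767 FPKM across Med23+/+ against 7.88 ± 1.97 FPKM across Med23-/- cultures (SD, n = 4 each), with overlapping libraries (log2 difference -0.15, limma adjusted p = 0.451). The FPKM of Thra also sums its isoforms, and the isoform known not to bind T3 cannot be told apart from the others in this table.

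Thrb (chromosome 14, 17660261 to 18038090, plus strand), the gene of the second T3 receptor, was low throughout. It had 1.38, 1.47, 1.52 and 1.31 FPKM across Med23+/+ replicates 1 to 4, against 1.115, 1.01, 1.78 and 1.51 FPKM across those of Med23-/-. The Med23-/- libraries lay on both sides of the Med23+/+ range, replicates 1 and 2 below it, replicate 3 above it and replicate 4 within it. The log2 difference was -0.05 (95% interval -0.35 to 0.25, limma adjusted p = 0.811). Its sign turned to 0.02 without Med23-/- replicate 2.

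Thra made up 98.34% to 98.75% of the summed receptor FPKM in the Med23+/+ libraries and 97.75% to 98.82% in the Med23-/- libraries. Thra was 59.4 to 79.0 times as high as Thrb in Med23+/+ and 43.5 to 83.6 times as high in Med23-/- iOLs. The summed level of both receptors was 104.5 ± 12.75 FPKM across Med23+/+ against 78.8 ± 6.72 FPKM across Med23-/- cultures (SD, n = 4 each). Whether Thra differed between the genotypes by more than Thrb was tested within each library. On log2(FPKM + 1), Thra less Thrb was 5.42 ± 0.18 across Med23+/+ against 5.07 ± 0.31 across Med23-/- cultures (SD, n = 4 each). The added 1 FPKM narrows the gap to the weakly expressed Thrb, so these values are below the log2 of the ratios above. The difference between the genotypes was -0.35 (p = 0.143 by the two-sided exact permutation test, and 0.143 after adjustment for the 2 such comparisons made). It was -0.31 with a pseudocount of 0.1 FPKM (exact permutation p = 0.257) and -0.06 under quantile normalization (exact permutation p = 0.771). A larger difference in Thra than in Thrb was thus not shown.

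The retinoid X receptors are the partners of the T3 receptors and also pair with the receptors of retinoic acid, oxysterols, fatty acids and vitamin D. Rxrb (chromosome 17, 34031812 to 34038399, plus strand) was the most abundant of them. Its values were 19.4, 18.75, 18.1 and 20.2 FPKM across Med23+/+ replicates 1 to 4, against 25.4, 21.0, 18.6 and 18.2 FPKM across those of Med23-/-. Med23-/- replicates 1 and 2 were above all Med23+/+ libraries and replicates 3 and 4 within their range, so the groups overlapped. The log2 difference was 0.11 (95% interval -0.13 to 0.34, limma adjusted p = 0.488), and 0.0097 without Med23-/- replicate 1.

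Rxra (chromosome 2, 27676440 to 27762957, plus strand) had 6.07, 5.09, 8.08 and 6.91 FPKM across Med23+/+ replicates 1 to 4, against 7.89, 6.79, 6.43 and 9.42 FPKM across those of Med23-/-. The means were 6.54 ± 1.27 FPKM and 7.63 ± 1.34 FPKM (SD, n = 4 each), with overlapping libraries (log2 difference 0.20, 95% interval -0.13 to 0.52, limma adjusted p = 0.340). It was 0.10 without Med23+/+ replicate 2 or Med23-/- replicate 4. Rxrg (chromosome 1, 167598384 to 167639623, plus strand), which is known from later oligodendrocyte stages and from remyelinating lesions, was under 1 FPKM in every library. It had 0.647, 0.378, 0.192 and 0.278 FPKM across Med23+/+ replicates 1 to 4, against 0.219, 0.168, 0.337 and 0.341 FPKM across those of Med23-/-. These ranges overlapped, and when all genes above 0 in at least 1 library were tested the log2 difference was -0.11 (limma adjusted p = 0.503).

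By share of summed RXR transcript, Rxrb held 73.5% ± 3.65, Rxra 25.0% ± 4.13 and Rxrg 1.44% ± 0.767 in Med23+/+ iOLs (SD, n = 4). In Med23-/- iOLs the shares were 72.3% ± 4.91, 26.7% ± 4.68 and 0.951% ± 0.377 (SD, n = 4). Each share differed between the genotypes by less than the larger of its SDs within a genotype. The summed RXR level was 26.0 ± 1.31 FPKM across Med23+/+ against 28.7 ± 3.42 FPKM across Med23-/- cultures (SD, n = 4 each), with overlapping libraries. In every library the T3 receptors summed to more than the retinoid X receptors, 3.66 to 4.55 times as much in Med23+/+ and 2.42 to 3.12 times as much in Med23-/- iOLs. These ratios did not overlap between the genotypes. They were not tested, and they largely repeat the difference in Thra, which makes up nearly all of the T3 receptor sum.

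**Figure D2:**
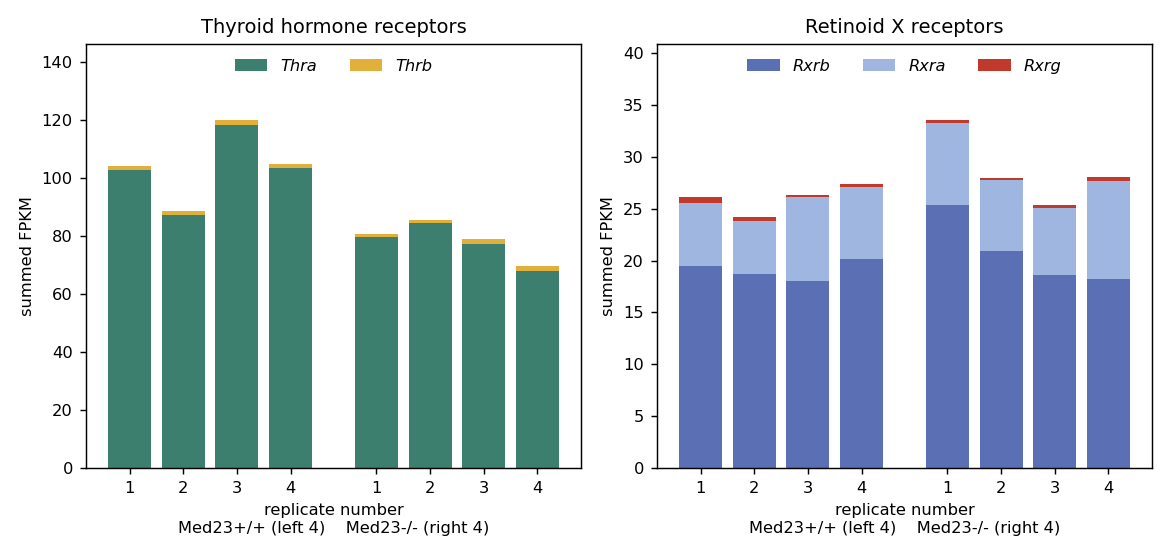
Summed FPKM of the thyroid hormone receptor genes (left) and the retinoid X receptor genes (right) in each library, stacked by gene, with the 4 Med23+/+ libraries at the left of each panel and the 4 Med23-/- libraries at the right. Thra fills nearly all of the left bars and is lower in Med23-/-, while Rxrb and Rxra keep similar parts of the right bars and Rxrg is a thin band at the top.

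The bases before the start sites of the retinoid X receptor genes are shown because the 3 genes of this family stood at such different levels, and that of Klf9 because it is a T3 target. RefSeq start sites (GRCm38.p6) were matched for 7 of the 9 genes, with 11 start sites in all, and none was matched for Thra and Hr. The 250 bases before the first listed start site are written 5′ to 3′, with capitals for the receptor hexamer AGGTCA and for the core of the Sp1 box, GGGCGG, on either strand.
Rxra, chr2:27676951-27677200, plus strand: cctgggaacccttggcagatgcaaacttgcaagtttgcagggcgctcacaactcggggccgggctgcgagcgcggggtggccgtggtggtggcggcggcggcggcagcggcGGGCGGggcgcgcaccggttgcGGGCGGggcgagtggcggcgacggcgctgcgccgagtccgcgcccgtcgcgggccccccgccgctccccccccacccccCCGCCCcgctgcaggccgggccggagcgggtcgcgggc
Rxrb, chr17:34031562-34031811, plus strand: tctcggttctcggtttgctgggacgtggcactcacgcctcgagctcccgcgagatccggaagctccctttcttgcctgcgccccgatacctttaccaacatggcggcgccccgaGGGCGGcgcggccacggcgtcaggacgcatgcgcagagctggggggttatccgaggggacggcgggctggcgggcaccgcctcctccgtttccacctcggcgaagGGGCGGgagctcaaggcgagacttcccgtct
Rxrg, chr1:167598112-167598361, plus strand: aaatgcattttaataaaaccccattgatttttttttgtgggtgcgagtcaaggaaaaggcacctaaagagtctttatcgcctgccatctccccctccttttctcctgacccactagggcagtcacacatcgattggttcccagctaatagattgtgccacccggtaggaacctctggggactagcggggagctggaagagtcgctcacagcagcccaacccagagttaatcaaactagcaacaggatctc
Klf9, chr19:23140976-23141225, plus strand: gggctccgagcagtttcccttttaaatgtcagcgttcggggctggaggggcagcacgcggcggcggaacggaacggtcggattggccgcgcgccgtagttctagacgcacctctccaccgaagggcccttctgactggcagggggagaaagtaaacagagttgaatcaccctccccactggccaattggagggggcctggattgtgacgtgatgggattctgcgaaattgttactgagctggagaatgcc
Of the windows shown, Rxra held 3 copies of GGGCGG and Rxrb 2, and Rxrg and Klf9 held none. AGGTCA was found in none of these 4 windows, but the window of the second listed start site of Rxra held 2 copies and that of Rxrg held 1. Over all 11 start sites, GGGCGG was found at 5 and AGGTCA at 3, and over all 32851 RefSeq windows of this length 32.7% held GGGCGG and 14.0% held AGGTCA. The direct repeat of AGGTCA with a spacer of any 4 bases, the classical T3 response element, was found at none of the 11 and at 0.0152% of all windows. Such matches are letters in a window and say nothing of binding.

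Hr (chromosome 14, 70552212 to 70573548, plus strand) encodes the corepressor Hairless and is a direct T3 target in the brain. It showed the largest difference of the 6 genes tested. The Med23+/+ libraries had 43.1, 35.4, 46.6 and 42.1 FPKM and the Med23-/- libraries 30.1, 28.0, 25.1 and 28.6 FPKM. The highest Med23-/- library, replicate 1, lay under the lowest Med23+/+ library, which was again replicate 2. The mean was 41.8 ± 4.70 FPKM across Med23+/+ against 28.0 ± 2.08 FPKM across Med23-/- cultures (SD, n = 4 each), 0.669 times as much. The log2 difference was -0.56 (standard error 0.10, 95% interval -0.78 to -0.34, limma adjusted p = 0.00231; two-sided exact permutation test, p = 0.0286). Hr was called under each of the 9 other settings and with each library left out, and its limma adjusted p did not pass 0.00886.

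Klf9 (chromosome 19, 23141226 to 23168134, plus strand) encodes a zinc finger transcription factor that T3 induces in many cell types and that promotes oligodendrocyte differentiation. It had 20.4, 18.1, 20.7 and 20.3 FPKM across Med23+/+ replicates 1 to 4, against 15.8, 13.4, 18.6 and 19.4 FPKM across those of Med23-/-. Med23-/- replicates 1 and 2 were below all Med23+/+ libraries, whereas replicates 3 and 4 lay within the Med23+/+ range. The means were 19.9 ± 1.19 FPKM and 16.8 ± 2.75 FPKM (SD, n = 4 each), and the log2 difference was -0.24 (95% interval -0.50 to 0.01, limma adjusted p = 0.135). With sample weights, which give less to libraries that scatter, Klf9 passed the threshold (log2 difference -0.32, limma adjusted p = 0.0392), and under the 8 other settings it did not. Without Med23-/- replicate 2 the difference was -0.15.

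Hr and Klf9 were also compared within each library. Hr was 1.95 to 2.25 times as high as Klf9 in Med23+/+ and 1.35 to 2.09 times as high in Med23-/- iOLs. On log2(FPKM + 1), Hr less Klf9 was 1.03 ± 0.08 across Med23+/+ against 0.71 ± 0.28 across Med23-/- cultures (SD, n = 4 each). The difference between the genotypes was -0.32 (p = 0.0571 by the two-sided exact permutation test, and 0.114 after the same adjustment). The difference in Hr was therefore not shown to exceed that in Klf9.

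The deiodinase genes averaged under 1 FPKM, with Dio2 above 0 in every library and Dio3 listed at 0 in some. Dio2 (chromosome 12, 90724552 to 90738438, minus strand) had 0.960, 0.895, 0.582 and 0.7445 FPKM across Med23+/+ replicates 1 to 4, against 0.454, 0.548, 1.05 and 0.893 FPKM across those of Med23-/-. The Med23-/- values spread over a wider range than the Med23+/+ values and enclosed them. Tested among all genes above 0, the log2 difference was -0.06 (limma adjusted p = 0.786), and it turned to 0.02 without Med23-/- replicate 1.

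Dio3 (chromosome 12, 110279068 to 110281097, plus strand) was detected at 0.246, 0.135 and 0.0806 FPKM in replicates 1, 2 and 3 of Med23+/+, while replicate 4 is listed at 0. Of the Med23-/- libraries replicate 1 had 0.105 FPKM, and the other 3 are listed at 0. Above 0 in 3 Med23+/+ libraries and 1 Med23-/- library, it did not differ detectably at these levels (log2 difference -0.12 among all genes above 0, limma adjusted p = 0.273). Its antisense RNA Dio3os is listed at 0 in 5 libraries, with a highest value of 0.212 FPKM in Med23+/+ replicate 1.

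The libraries were also examined for markers of other brain cells, since astrocytes and neurons express several of these genes. Of 6 neuron markers (Tubb3, Rbfox3, Snap25, Syt1, Stmn2 and Nefl), all 6 were higher in Med23-/- iOLs, with a summed level of 39.3 to 63.6 FPKM in Med23+/+ and 81.0 to 154 FPKM in Med23-/- libraries. Of 8 astrocyte markers, Gfap, Aqp4, S100b and Fgfr3 were lower and Slc1a2 was higher, with a summed level of 198 to 245 FPKM in Med23+/+ and 72.8 to 114 FPKM in Med23-/- libraries. S100b and Fgfr3, which are expressed in the oligodendrocyte lineage too, carried most of that sum in Med23+/+ but not in Med23-/- libraries. S100b averaged 124.6 FPKM in Med23+/+ and 17.5 FPKM in Med23-/-, and Fgfr3 24.2 and 5.12 FPKM. The other 6, summed after the values were seen, overlapped between the genotypes, with 53.15 to 107.7 FPKM in Med23+/+ and 48.99 to 85.01 FPKM in Med23-/- libraries. No neuron or astrocyte marker was under 1 FPKM on average over the 8 libraries. The part of these cells in the levels of Thra, Hr and the other genes was not tested, and in cultures sequenced in bulk fewer cells of a type and less RNA per cell cannot be told apart.

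The genes examined that bring T3 into the cell or hold it there showed no called difference. Of 8 transporter and binding protein genes, 3 were tested and none was called by limma, with 0 at an unadjusted p under 0.05 and a median log2 difference of 0.10. The highest difference was 0.32 for Slc7a5, an amino acid transporter gene whose product also carries T3 (95% interval -0.13 to 0.77, limma adjusted p = 0.260). Its libraries overlapped, with 19.9 to 23.2 FPKM in Med23+/+ and a wider spread of 19.4 to 43.5 FPKM in Med23-/-. The lowest was 0.08 for the amino acid exchanger gene Slc7a8 (limma adjusted p = 0.644). Slc16a10, the brain transporter gene Slco1c1, the T3-binding protein gene Crym and Ttr were under 1 FPKM on average, and Dio1 is listed at 0 in every library.

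Among 11 genes of corepressors and coactivators, all tested, 1 was lower and 2 were higher. That is a share near the 30.0% called over all genes tested, and the median log2 difference was -0.0009 against -0.01 over all genes. None of these 3 passed 2-fold on the log2(FPKM + 1) scale, although the ratio of mean FPKM was 2.25 for Ppargc1a. The corepressor gene Ncor1 had a log2 difference of -0.05, and Med1, the Mediator subunit that binds the T3 receptor, had -0.13 (95% interval -0.31 to 0.06, limma adjusted p = 0.279). Ncoa1, the gene of the coactivator SRC-1, rose from 14.8 ± 0.732 to 19.6 ± 2.29 FPKM (SD, n = 4 each), with 13.9 to 15.4 FPKM in the Med23+/+ and 18.1 to 23.0 FPKM in the Med23-/- libraries (log2 difference 0.38, limma adjusted p = 0.0108). Ppargc1a, a coactivator gene of energy metabolism, rose from 0.840 ± 0.309 to 1.89 ± 0.436 FPKM (SD, n = 4 each) (log2 difference 0.65, limma adjusted p = 0.0138). Both were called with each library left out. Ppargc1a averaged under 1 FPKM in Med23+/+, so it entered the test only through its Med23-/- level. Tbl1xr1, a subunit of the corepressor complex, was at 37.2 ± 2.24 FPKM across Med23+/+ against 31.5 ± 2.202 FPKM across Med23-/- cultures (SD, n = 4 each) (log2 difference -0.23, limma adjusted p = 0.0482). It lost the call in 7 of the 8 fits that left out a library, without each library other than Med23-/- replicate 2, with limma adjusted p up to 0.119, and under quantile normalization, no variance trend and sample weights (up to 0.224).

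Of 14 other nuclear receptors that pair with RXR, 7 were tested, 1 was lower and 1 was higher, again near the 30.0% called over all genes tested, and the median log2 difference was -0.28. Neither passed 2-fold on the log2(FPKM + 1) scale, although the ratio of mean FPKM was 2.11 for Nr4a2. Nr4a2, the gene of the orphan receptor Nurr1, rose from 0.973 ± 0.0719 to 2.05 ± 0.236 FPKM (SD, n = 4 each) and showed the highest log2 difference of the list, 0.63 (limma adjusted p = 0.00261). Its Med23+/+ mean was under 1 FPKM, so it entered the test only through its Med23-/- level. Ppard, a fatty acid receptor gene, had 17.4 ± 1.94 FPKM across Med23+/+ against 13.2 ± 2.14 FPKM across Med23-/- cultures (SD, n = 4 each) (log2 difference -0.38, limma adjusted p = 0.0452). Without Med23+/+ replicate 1, 3 or 4 or Med23-/- replicate 2 or 3 it was not called (limma adjusted p up to 0.119), nor under 4 of the 9 other settings (up to 0.0696). The lowest log2 difference, -0.39, belonged to Nr4a1, whose libraries overlapped (limma adjusted p = 0.129). The retinoic acid receptor genes Rara, Rarb and Rarg had log2 differences of -0.29, 0.36 and -0.28, with limma adjusted p from 0.09998 to 0.213.

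Retinoid supply was hardly expressed. Of 14 genes for retinoid transport, synthesis and breakdown, 12 were under 1 FPKM on average, and the 2 tested had a median log2 difference of 0.07. None was called by limma, with 0 at an unadjusted p under 0.05. Aldh1a1, which encodes an enzyme that makes retinoic acid, had a log2 difference of 0.10 (limma adjusted p = 0.839), and Rdh10, which encodes a retinol dehydrogenase, had 0.05 (limma adjusted p = 0.737).

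**Figure D3:**
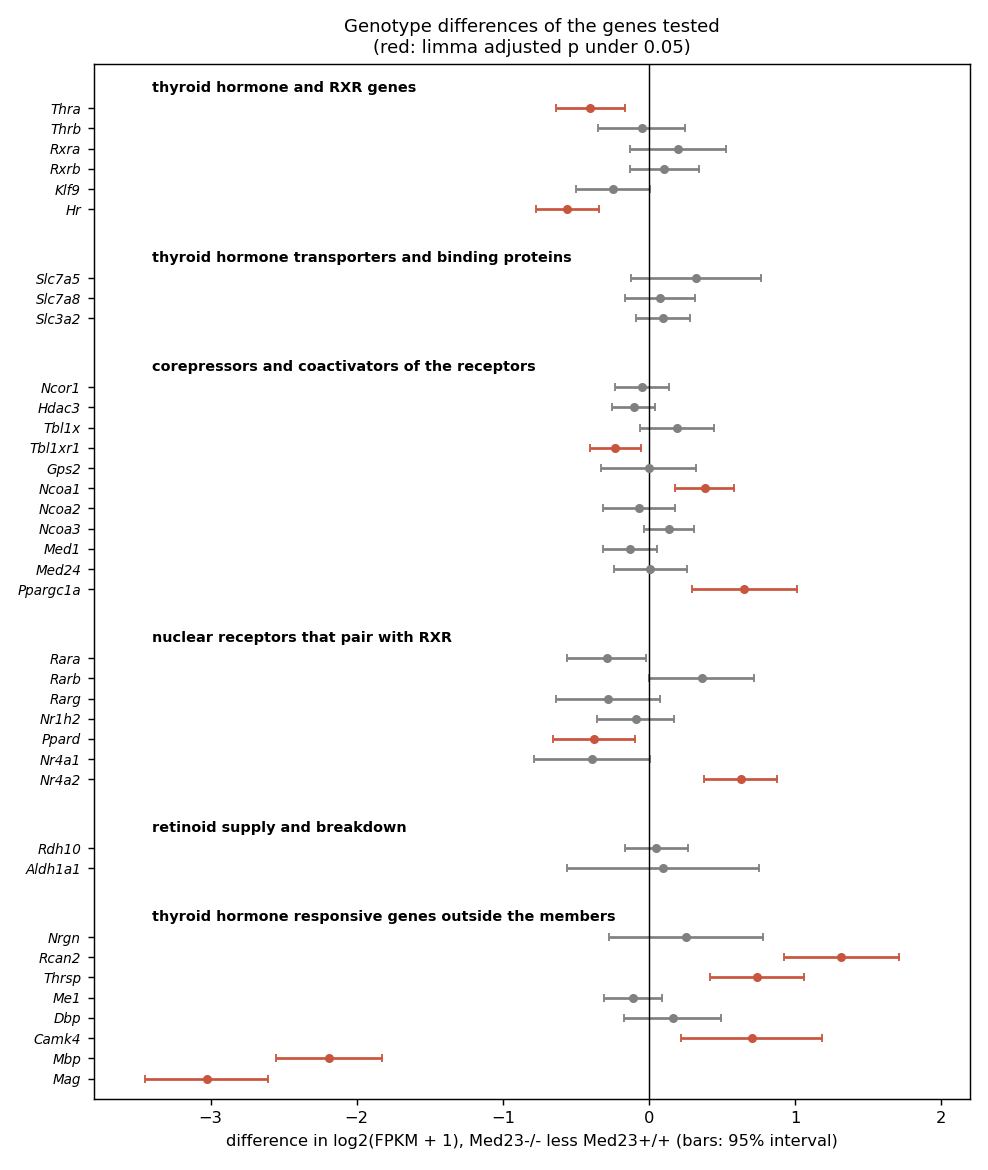
Difference in log2(FPKM + 1) between Med23-/- and Med23+/+ iOLs with its 95% interval (n = 4 each) for the 6 tested genes of thyroid hormone and RXR signalling and for the tested genes of 5 lists, red where the limma adjusted p was under 0.05. Differences beyond 1 on this scale are seen for Mbp and Mag, which are lower, and for Rcan2, which is higher.

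Other genes known to respond to T3 in brain or liver were set beside Hr and Klf9. Of 12 such genes 8 were tested, and 2 were lower and 3 higher, against 14.1% and 15.9% of all genes tested, with a median log2 difference of 0.21. The 2 lower genes, Mbp and Mag, encode myelin proteins, and earlier results of these data had shown such genes to be lower. Mbp fell from 64.4 ± 10.2 to 13.4 ± 2.88 FPKM and Mag from 14.2 ± 3.70 to 0.860 ± 0.409 FPKM (SD, n = 4 each). Their log2 differences were -2.19 and -3.03 (limma adjusted p = 2.89e-05 and 1.86e-05).

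The 3 higher genes are known from other settings. Rcan2, a calcineurin regulator gene, had 3.88, 3.003, 1.96 and 1.81 FPKM across Med23+/+ replicates 1 to 4, against 8.72, 7.19, 7.04 and 8.81 FPKM across those of Med23-/-, well apart (log2 difference 1.32, standard error 0.18, limma adjusted p = 0.000581). Thrsp, a lipogenic gene of the liver, rose from 0.650 ± 0.225 to 1.75 ± 0.299 FPKM (SD, n = 4 each) (log2 difference 0.74, limma adjusted p = 0.00427). Thrsp averaged under 1 FPKM in Med23+/+, so it entered the test only through its Med23-/- level. Camk4, a kinase gene of neurons, was at 3.06 ± 0.406 FPKM across Med23+/+ against 5.88 ± 2.44 FPKM across Med23-/- cultures (SD, n = 4 each), with overlapping libraries (log2 difference 0.70, limma adjusted p = 0.0338). Its call was lost without Med23+/+ replicate 2, 3 or 4 or Med23-/- replicate 4 (limma adjusted p up to 0.0840), and also with all genes above 0 and under quantile normalization (up to 0.0791). The neuron markers named above, higher in every Med23-/- library, moved with Camk4, and their part in it was not tested. Nrgn, Me1 and Dbp were not called (limma adjusted p from 0.402 to 0.460).

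**Figure D4:**
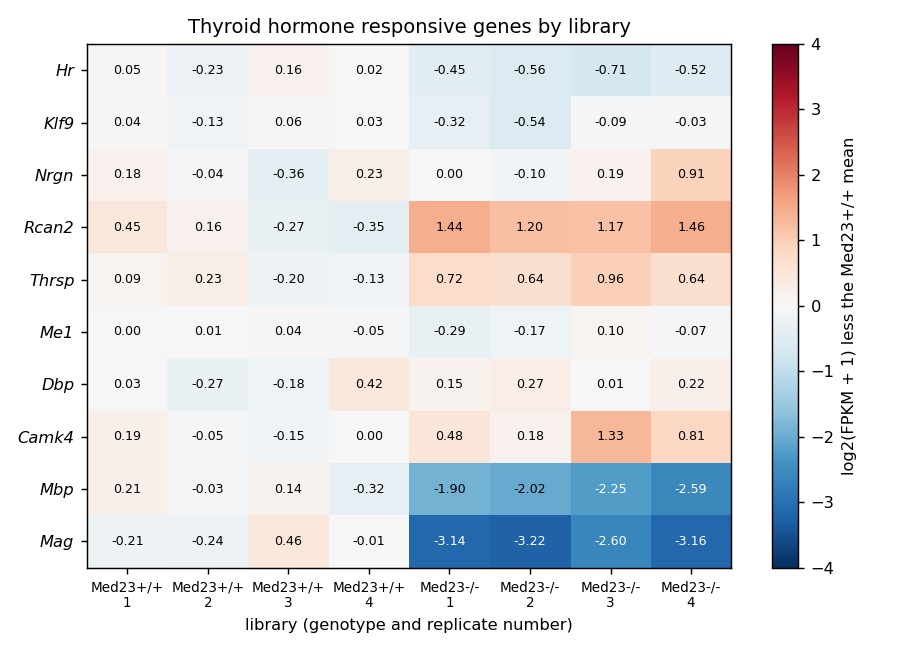
Log2(FPKM + 1) of 10 T3-responsive genes in each library, less the Med23+/+ mean of the gene, with the value written in each cell, blue for lower and red for higher. Hr, Mbp and Mag are lower in all 4 Med23-/- libraries and Klf9 mainly in replicates 1 and 2, while Rcan2 and Thrsp are higher in all 4.

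Over the 8 libraries, the genes whose levels moved most like Thra among the 9434 genes that averaged 5 FPKM or more were 1810041L15Rik, Wdr6 and Galnt11 (Pearson r of 0.989, 0.986 and 0.982 on log2(FPKM + 1)). Those most like Hr were Ddx54, Hmgxb3 and Frmd8 (r of 0.991, 0.991 and 0.990). These correlations describe 8 points that share their genotype and library, and are given without a test. The choice by correlation fixes that such genes share the genotype difference and the order of libraries with Thra or Hr.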

How the data were processed

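RNA from 8 iOL cultures, 4 Med23+/+ and 4 Med23-/- by the labels, was sequenced by the authors, who used Cutadapt for trimming, Tophat2 for alignment to mm10 and cuffdiff to compute FPKM, with its bias and multi-read corrections. The deposited table holds the authors' FPKM per gene and library. Tool versions, the annotation, the scaling between libraries and the use of strand are not given in the sources used here. The table has no counts, so the depth and counting error are unknown, and an entry of 0 may also be a failed estimate. Its group means and its columns of log2 fold changes, test statistics, p-values and q-values from the authors' own comparison were not used.

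Genes averaging 1 FPKM or more across all 8 libraries (12328 of 24346) were tested with limma 3.58.1 (R 4.3.3) on log2(FPKM + 1), with a variance trend and no covariate, and p-values were adjusted by Benjamini-Hochberg over all of them. Single genes were also tested by an exact permutation test (Python 3.11.15, scipy 1.17.1), two-sided, whose smallest p with 4 against 4 is 0.0286. The p-values measure only the spread between these cultures. On simulated data the limma step called 194 of 200 changed genes, 0 of them in the wrong direction, and 8 others of the 12328. The share of genes that this step would call at differences as small as those of Thra, Hr and Klf9 was not tested. Alternatives were a pseudocount of 0.1 FPKM, all genes above 0 or a mean limit of 5 FPKM, quantile normalization, median-ratio scaling, a constant prior variance, weights per sample, a block for the replicate number, a covariate splitting replicates 1 and 2 from 3 and 4, and the omission of each library in turn. Gene positions come from GENCODE vM21 (mm10) and start-site sequences from RefSeq (GRCm38.p6).

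The 9 genes, the lists and the markers were chosen with earlier results of these data known. Some genes of these lists and markers are not reported here and are left out of their counts. Named were the 9 genes, Med23, genes overlapping or antisense to them, list genes called with a fold change above 2 or, where a list had none, its highest and lowest difference, and for Thra and Hr the 3 most alike genes. Other genes named in the lists and among the markers, and the differences Hr less Klf9 and Thra less Thrb, were chosen after their values were seen.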

Additional observations from a re-analysis of the deposited data

Results flagged for a closer look

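In 82 groups of 4 libraries, formed by genes named here and the genotypes, a single library stood apart from the other 3 in 5 by Dixon's test of the gap to the nearest library. Chance gives about 1 in 20 such groups. Klf9 was lowest in Med23+/+ replicate 2, at 18.1 FPKM, with the next library at 20.3 FPKM. Dio3 was above 0 in Med23-/- replicate 1 alone, at 0.105 FPKM. With the other 3 at 0 any value above 0 is flagged, so this flag was fixed by the zeros. Mag had 1.47 FPKM in Med23-/- replicate 3 and at most 0.699 FPKM in the other Med23-/- libraries. Rdh10 was lowest in Med23-/- replicate 1, at 3.63 FPKM against 4.27 FPKM in the next library. Slc7a8 was highest in Med23+/+ replicate 4, at 3.67 FPKM against 2.998 FPKM.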

How the results depend on the processing

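Hr was lower under every alternative run, with log2 differences from -0.64 to -0.48. Thra was lower under all of them too, but lost its call under quantile normalization (-0.27, limma adjusted p = 0.0822), which left 1 of the 9 genes called, and Klf9 gained one with sample weights (-0.32, limma adjusted p = 0.0392). Thrb ranged from -0.13 to 0.02 with a library left out, and turned to 0.0207 without Med23-/- replicate 2. With a pseudocount of 0.1 FPKM the log2 differences of Rxrg and Dio3 were -0.31 and -0.71, and 654 genes rather than 367 were higher by more than 2-fold. With a mean of at least 5 FPKM, 1281 genes rather than 1957 were higher. Of the RXR partner genes, 2 as reported, 1 was called with all genes above 0, 1 with a mean of at least 5 FPKM, 4 with sample weights, and 1 to 3 with a library left out (1 without Med23+/+ replicate 1, 3 or 4 or Med23-/- replicate 2 or 3). Of the retinoid supply genes, 1 rather than 0 was called with all genes above 0 (Crabp1, limma adjusted p = 0.0349), and of the other T3-responsive genes 3 rather than 5 with a mean of at least 5 FPKM. With all genes above 0 the count of the latter stayed at 5, but Camk4 lost its call and Shh gained one (limma adjusted p = 0.0048). Shh had a mean of 0.124 FPKM across Med23+/+ and 0.403 FPKM across Med23-/- cultures. The Thrb share in Med23+/+ was 1.57% under quantile normalization and 1.37% as deposited. The causes were not tested beyond what fewer genes or libraries entail. Pairing by replicate number was neither shown nor excluded (correlations of same-numbered deviations from -0.10 to 0.16, not always the highest of a library). As a block, replicate numbers left Thra (limma adjusted p = 0.0318) and Hr (limma adjusted p = 0.00683) called. Among the RXR partners the block added Nr4a1 (limma adjusted p = 0.0175) and dropped Ppard, and it gave 1835 lower and 2085 higher genes. Of the other values recomputed, 348 kept direction and side of the threshold or stayed within the limits set. The table holds no counts, so no limit from depth could be given for the genes under 1 FPKM.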

Other observations

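In the Med23-/- iOLs, replicates 3 and 4 were higher than replicates 1 and 2 for Thrb (1.78 and 1.51 against 1.115 and 1.01 FPKM), Dio2 (1.05 and 0.893 against 0.454 and 0.548 FPKM), Rxrg (0.337 and 0.341 against 0.219 and 0.168 FPKM) and Klf9 (18.6 and 19.4 against 15.8 and 13.4 FPKM). The opposite order was seen for Thra (77.4 and 68.1 against 79.8 and 84.7 FPKM) and Rxrb (18.6 and 18.2 against 25.4 and 21.0 FPKM), and neither order for Hr, Rxra and Dio3. The summed neuron markers were likewise higher in Med23-/- replicates 3 and 4 (154 and 129 FPKM) than in replicates 1 and 2 (109 and 81.0 FPKM). These libraries were set side by side after their values were seen, and their difference was not tested.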
